A study of Mus musculus with 20 samples.

Results

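The genes described here are 39 interferon-stimulated and antigen presentation genes in mouse C2C12 myotubes. They were taken by symbol from a table of 26722 genes, and each of the 39 had a single row. By role they are 3 sensors of viral RNA, 4 transcription factors, 17 antiviral effectors, 1 feedback inhibitor of the receptor, 5 interferon-inducible GTPases, 8 genes of class I antigen presentation and 1 chemokine. On average over 20 libraries 26 of the 39 lay above 1 CPM, the usual unit for a count scaled to library size, and 13 did not.

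Interferons are secreted proteins that cells release when they sense viral RNA or DNA. They bind receptors on the same and neighbouring cells, and kinases of the JAK family then phosphorylate STAT proteins. A complex that contains STAT2 and IRF9 binds an element in promoters called the interferon-stimulated response element (ISRE), and the response to interferon gamma also uses the gamma-activated site (GAS). The target genes encode proteins that block viral replication, and others that load peptides onto class I molecules for display to T cells. Many of these genes are nearly silent without interferon, and others keep a basal level in most cell types. Skeletal muscle fibres are known for low class I display, which rises in inflammatory muscle disease.

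C2C12 is an established mouse myoblast line, and these cells were kept in horse serum for 5 days to fuse into myotubes. The cultures then received 1 of 5 treatments for 16 hours, each with an antibody at 7.7 nM. The control received b12, a human IgG4 antibody used as negative control. The second group received 13-3B5, a human IgG4 antibody that activates MuSK, the muscle receptor kinase through which nerves organise the synapse. The other 3 groups received 0.1 nM neural agrin, the natural activator of MuSK, with b12, with 13-3B5xb12 or with 11-3F6xb12. The last 2 antibodies are monovalent for MuSK and are labelled as inhibiting. Every culture thus contained an antibody, no interferon is named among the treatments, and the model is 1 cell line cultured without nerve. The series has 20 libraries of total RNA, with 4 biological replicates of each treatment, numbered 1 to 4. The labels do not say whether a number marks a shared culture or day, so the p-values measure the spread between these libraries.

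The libraries held between 18424881 and 23343903 counts. A count of 3 corresponded to between 0.1285 and 0.1628 CPM, which is the limit that a count of 0 allows for counting error. Mitochondrial genes took 27.9% to 39.1% of the counts of a library. All 11 myotube markers lay above 1 CPM on average, and their sum ran from 8210 to 9919 CPM. Of 13 leukocyte markers, 8 were matched, and none of them lay above 1 CPM. Their sum ran from 0.456 to 2.08 CPM, and Ptprc, the common leukocyte antigen CD45, averaged 0.0185 CPM. The library of agrin with 13-3B5xb12, replicate 1, stood apart with the fewest genes with counts, 16261, and the lowest sum over the 39 genes, 643 CPM. The other 19 libraries had sums between 683 and 817 CPM. Results that rest on that library are given with and without it.

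The promoters of these genes were searched for an ISRE core, GAAA followed after any 2 bases by GAAA, and for the GAS core TTCNNNGAA on both strands. The windows run from 250 bases before to 50 bases after each RefSeq start on GRCm38.p6, and 31 of the 39 genes had a window. An ISRE match was found in 16 of these 31 genes (51.6%), against 3.99% of 27025 genes with a window. A GAS match was found in 8 of 31 (25.8%), against 9.55% of all. Below are the bases before the start for B2m and Irgm1, which differed between replicate numbers, as described later. They lie at chr2:122147437-122147686 on the plus strand and at chr11:48871421-48871670 on the minus strand. Capitals mark the ISRE matches, whose first bases lie 139 bases before the RefSeq start in B2m and 30 and 24 bases before it in Irgm1. The stretch of Irgm1 lies inside the gene as GENCODE M21 annotates it, whose start is further upstream. The bases after the RefSeq start were found near the beginning of a GENCODE transcript for 24 of the 31 genes.

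B2m: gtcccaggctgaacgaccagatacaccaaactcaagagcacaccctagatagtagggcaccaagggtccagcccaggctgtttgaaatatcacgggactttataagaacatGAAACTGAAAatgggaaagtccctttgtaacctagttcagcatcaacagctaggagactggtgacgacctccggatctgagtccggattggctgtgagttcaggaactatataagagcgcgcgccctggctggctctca
Irgm1: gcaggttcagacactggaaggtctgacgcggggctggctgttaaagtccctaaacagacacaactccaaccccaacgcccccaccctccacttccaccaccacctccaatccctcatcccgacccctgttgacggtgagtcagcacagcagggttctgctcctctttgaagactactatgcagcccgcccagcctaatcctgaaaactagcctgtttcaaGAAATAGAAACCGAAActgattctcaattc

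Stretches of 30 bases follow for 7 further genes. Gbp2 (chr3:142620594-142620623, plus strand) also differed between replicate numbers, and Ddx58 (chr4:40239804-40239833, minus strand) has its match 3 bases after the start. The other 5 are genes not above 1 CPM on average whose promoters hold the same motif. They are Isg15 (chr4:156200871-156200900, minus), Ifit1 (chr19:34640785-34640814, plus), Rsad2 (chr12:26456553-26456582, minus), Oas1a (chr5:120907523-120907552, minus) and Cxcl10 (chr5:92349083-92349112, minus). These 5 and Gbp2 were picked after their values were seen. Capitals mark the ISRE matches, and where they read TTTC the match is on the other strand.

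Gbp2: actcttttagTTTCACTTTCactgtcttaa
Ddx58: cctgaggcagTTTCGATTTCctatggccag
Isg15: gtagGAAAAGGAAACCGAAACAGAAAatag
Ifit1: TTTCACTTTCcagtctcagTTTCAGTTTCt
Rsad2: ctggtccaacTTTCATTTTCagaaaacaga
Oas1a: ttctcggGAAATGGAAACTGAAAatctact
Cxcl10: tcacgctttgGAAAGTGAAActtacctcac

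An exact match to the ISRE core did not divide the expressed from the low genes. Of the 16 genes with an ISRE match 11 lay above 1 CPM, and of the 15 without one 10 did. Isg15 with 3 overlapping matches averaged 0.322 CPM, and B2m with 1 match averaged 257 CPM. A match is a description of letters and does not show that a factor was bound. The search took exact matches only, so a gene without one may still hold a related element. The split thus does not show whether such elements go with the level.

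The 26 genes above 1 CPM were 66.7% of the 39, against 45.5% of all 26722 genes. Of the 26, 12 lay above 10 CPM and 14 between 1 and 10 CPM. In every one of the 20 libraries 18 genes lay above 1 CPM, and 31 did so in at least 1 library. CPM values here are scaled by the trimmed mean of M values (TMM), and none of the 39 genes held a large part of a library. Together they took between 0.0629% and 0.0851% of its counts.

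**Figure D1:**
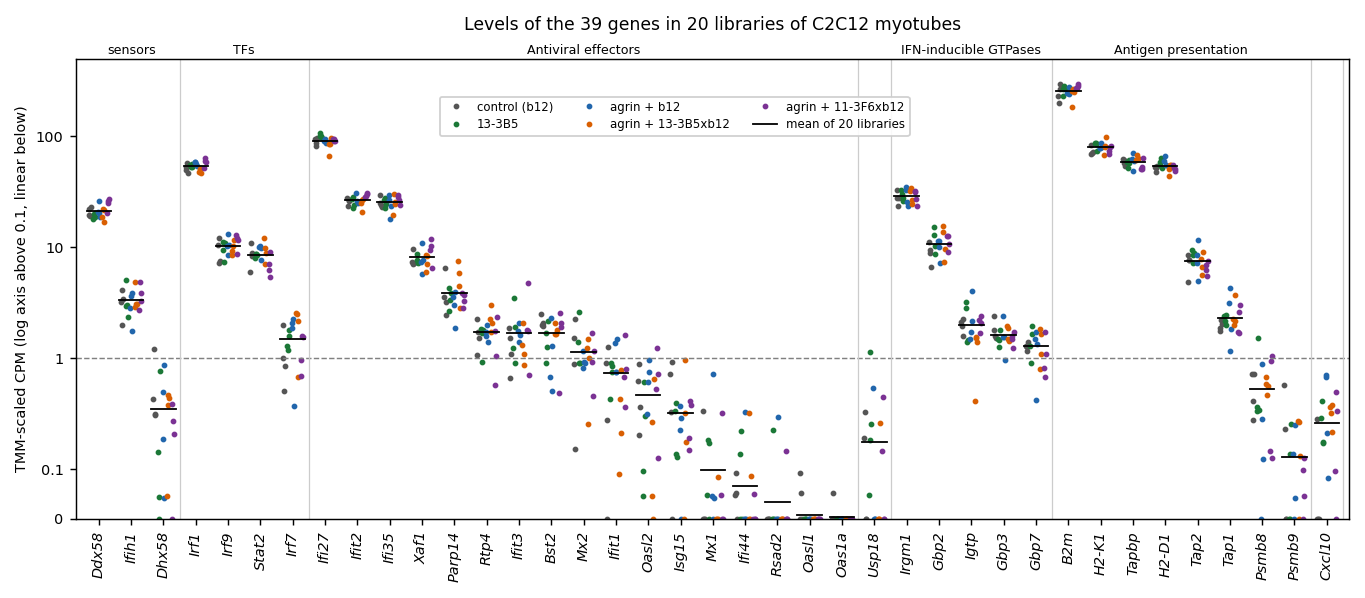
Each point is the TMM-scaled CPM of a gene in 1 library, coloured by treatment, and the black line is the mean of 20 libraries; the axis is logarithmic above 0.1 CPM and linear below. The dashed line marks 1 CPM, which 26 of the 39 means exceed, and the 2 columns without a class title are Usp18, the feedback inhibitor, and Cxcl10, the chemokine.

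Class I antigen presentation held the gene with the highest level per kb of exon, B2m. B2m, the invariant light chain of class I molecules, had 257 ± 29.8 CPM (SD, n = 20), with a range from 182 to 298. The heavy chains H2-K1 and H2-D1 had 79.4 ± 7.65 and 54.2 ± 5.13 CPM, and the classical chains resemble each other and other H2 genes, so reads could have been split between them. Tapbp (tapasin), which bridges class I molecules to the peptide transporter, had 59.1 ± 6.06 CPM. The subunits of that transporter, Tap2 and Tap1, had 7.53 ± 1.65 and 2.33 ± 0.736 CPM. Psmb8 and Psmb9, inducible catalytic subunits of the immunoproteasome, had 0.528 and 0.128 CPM. Per kb of exon they had 0.156 and 0.0351 CPM, while the constitutive subunits that they replace, Psmb5 and Psmb6, had 28.5 and 113 CPM per kb, and Psmb10, the other inducible subunit, had 14.2. Exons of Tap1 and Psmb9 overlap on opposite strands. Exons of Irf1, Irf7, Tap2, Tapbp, Ifi35, Dhx58, Gbp2, Usp18 and Cxcl10 also overlap a gene on the opposite strand. Those of Igtp, Irf9, Tapbp, Parp14 and Rtp4 overlap another gene on the same strand (Irgm2, Rnf31, Zbtb22, Gm49730 and Gm45338), and how the counting treated such reads is not given in the sources used here.

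Per kilobase of exon, which allows genes to be compared, the order at the top was B2m with 299 CPM per kb, Ifi27 with 62.4, H2-K1 with 27.0, H2-D1 with 21 and Tapbp with 16.3. The ranges over the libraries separated B2m (212 to 346 CPM per kb) from Ifi27 (45.4 to 72.5) and Ifi27 from H2-K1 (22.9 to 33.4). Those of H2-K1 and H2-D1 (17.1 to 25.6) overlapped, as did those of H2-D1 and Tapbp (13.5 to 19.5). Next came Ifi35 with 14.8 and Irf1 with 13.6 CPM per kb, whose ranges overlapped that of Tapbp. Ifit2 followed with 6.78, Irgm1 with 4.99, Gbp2 with 4.28 and Ddx58 with 3.01 CPM per kb.

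**Figure D2:**
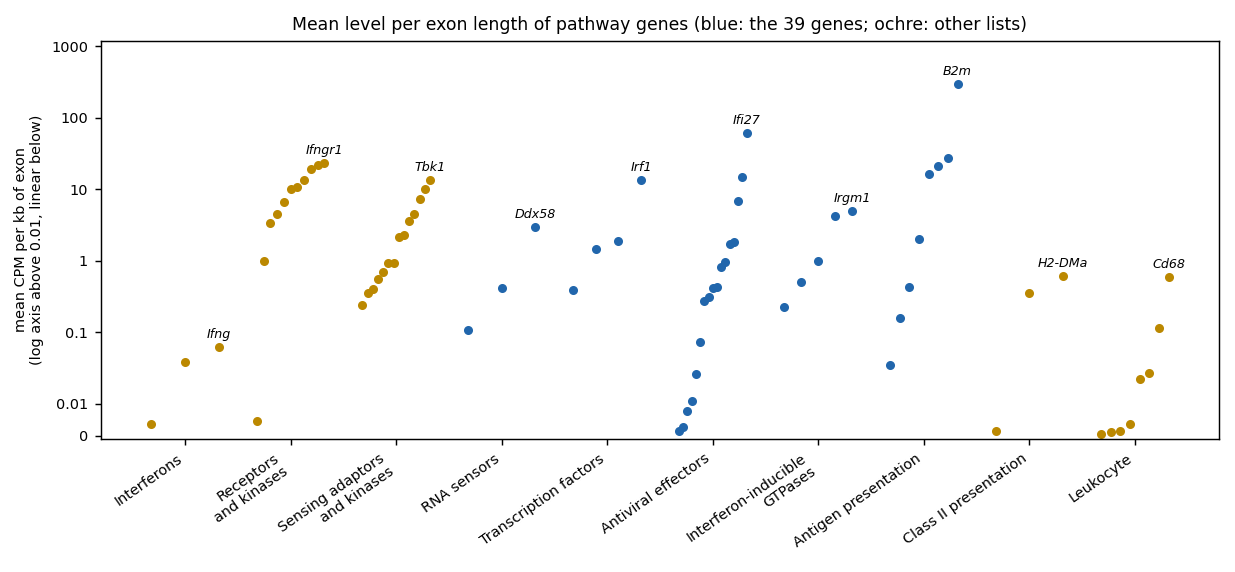
Each point is the mean over 20 libraries of a gene's CPM per kb of exon, grouped by role, with a logarithmic axis above 0.01; blue points belong to the 39 genes and ochre points to other lists. The named gene is the highest of its list: B2m reaches 299 CPM per kb, while Ifng, the highest of the matched interferons, reaches 0.0622.

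Of the 3 sensors, 2 lay above 1 CPM. Ddx58, which encodes RIG-I, had 21.3 ± 2.98 CPM, Ifih1, which encodes MDA5, had 3.35 ± 0.892 CPM, and Dhx58, which encodes the regulator LGP2, had 0.351 ± 0.313 CPM. All 4 transcription factors exceeded 1 CPM on average. Irf1, which is induced by interferon gamma and drives class I genes, had 54.2 ± 4.47 CPM, and per kb it was the highest of the 4. Irf9 and Stat2, which act together at the ISRE, had 10.2 ± 1.82 and 8.58 ± 1.69 CPM. Irf7, which amplifies interferon production, had 1.48 ± 0.676 CPM and exceeded 1 CPM in 14 of 20 libraries.

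The antiviral effectors spread most widely: 9 of the 17 lay above 1 CPM. Ifi27, a mitochondrial and nuclear membrane protein, had 91.5 ± 8.34 CPM, Ifit2 had 26.6 ± 2.63 CPM and Ifi35 had 25.5 ± 3.32 CPM. Xaf1, a protein that promotes cell death, had 8.11 ± 1.63 CPM, and Parp14, an ADP-ribosyltransferase, had 3.84 ± 1.38 CPM. Rtp4, Ifit3, Bst2 (tetherin, which holds budding virions) and Mx2 lay between 1.14 and 1.72 CPM. Mx2 is annotated as a polymorphic pseudogene in GENCODE M21.

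The 3 members of the Ifit family, which bind viral RNA, differed although they lie side by side on chromosome 19. Ifit2 had a median of 585 counts and no library under 495. Ifit1 had a median of 17.5 counts with none in control replicate 3, and Ifit3 had a median of 35 counts. Per kb of exon the mean of Ifit2 was 24.4 times that of Ifit1 and 6.96 times that of Ifit3. No library of Ifit3 was at or under 3 counts, and 2 of Ifit1 were. Ifit3 has a close copy, Ifit3b, so its reads are uncertain.

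The 13 genes not above 1 CPM held other effectors, the feedback inhibitor and the chemokine. Isg15, the ubiquitin-like modifier, had 0.322 CPM with 0 to 23 counts a library, and 3 libraries held none. Usp18, which removes ISG15 and blocks the receptor, had 0.177 CPM and no count in 10 libraries. Mx1, a GTPase that blocks influenza virus, had 0.0995 CPM and no count in 10. Rsad2 (viperin) had 15 counts over all 20 libraries and Ifi44 had 29. Of the oligoadenylate synthetase family, Oasl2 had 0.468 CPM, Oasl1 had 3 counts in all, and Oas1a had 1 count, in control replicate 3. Cxcl10, a chemokine that attracts T cells, had 0.261 CPM, and Ifit1, Dhx58, Psmb8 and Psmb9 complete the 13. Each of the 13 had no count in at least 1 library, and in each library between 3 and 9 of them were at 0.

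By treatment, the 13 low genes together had 39 to 101 counts in the control libraries and 36 to 111 with 13-3B5. They had 69 to 94 counts with agrin and b12, 40 to 76 with agrin and 13-3B5xb12, and 49 to 102 with agrin and 11-3F6xb12. The ranges of all 5 treatments overlapped. The highest counts of Mx1, 17 of 45 in all, and of Rsad2, 7 of 15, both fell in agrin replicate 3. These 2 genes were picked after their values were seen. In the same library 5 of the 13 low genes had no count, among them Isg15, Usp18 and Ifi44. Its sum over the 13 was 93 counts, against 111 in replicate 3 with 13-3B5. Agrin replicate 3 also had the highest sum over 8 hepatocyte markers, 16.4 CPM against at most 7.81 CPM elsewhere, with Alb (albumin) at 5.31 CPM. The part of such RNA in the counts of Mx1 and Rsad2 was not tested.

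The interferon-inducible GTPases were all above 1 CPM. Irgm1, an immunity-related GTPase that acts at vacuoles of pathogens and in autophagy, had 29.0 ± 3.75 CPM. Gbp2, a guanylate-binding protein, had 10.8 ± 2.54 CPM. Igtp (Irgm3), Gbp3 and Gbp7 had 1.98, 1.63 and 1.28 CPM. Gbp2 has a near copy, Gbp2b, which averaged 8.01 CPM, so reads could be shared between them.

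Receptors and kinases of the pathway were detected at levels far above those of the ligands per kb of exon, as the plot by role shows. Only 3 of 10 listed interferon genes were matched, Ifna5, Ifne and Ifng, with at most 0.0806 CPM on average. The receptor chains Ifnar1, Ifnar2, Ifngr1 and Ifngr2 had 60.3, 22, 67.5 and 40.9 CPM. Jak1 and Jak2 had 98.2 and 97.7 CPM, and Stat3 had 206 CPM. The receptor of interferon lambda, Ifnlr1, averaged 0.0194 CPM. Among adaptors, Tbk1, the kinase that activates IRF3, had 52.8 CPM and Irf3 itself 35.3 CPM. Of the 120 other genes of the pathway that were listed, 107 were matched and 75 lay above 1 CPM. Among other interferon-stimulated genes Rnf213 had 93.2 CPM, Tor3a 81.9 and Ifitm3 55.7, whereas Oas2, Oas3, Cmpk2 and Epsti1 lay at 0.0169 CPM or less. Ciita, the master regulator of class II presentation, averaged 0.013 CPM.

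The first question was whether activating MuSK, with agrin or with the bivalent antibody, or blocking agrin with a monovalent antibody, changed these genes. After the filter on low counts 30 of the 39 could be tested. The 9 left out were Isg15, Oasl1, Oas1a, Mx1, Rsad2, Ifi44, Usp18, Psmb9 and Cxcl10. None of the 30 passed an adjusted p of 0.05 in any of the 5 pairwise comparisons or in the test of any difference among the 5 treatments, by edgeR's quasi-likelihood test with Benjamini-Hochberg adjustment over 14605 genes. The share of all genes called was 0% in each of these 6 tests. DESeq2 called 0 of the 30 in each as well. These models held treatment only, so the spread between replicate numbers described below stayed in the standard errors. With the replicate numbers in the model 0 of the 30 were called too, and the counts over all genes are given at the end. At an unadjusted p under 0.05, 1 of the 30 passed for agrin against control (2.85% of all genes) and 1 for 13-3B5 against control (2.77%). For agrin with 13-3B5xb12 against agrin 5 passed (3.83%), and for agrin with 11-3F6xb12 against agrin 2 passed (3.33%). Between the 2 monovalent antibodies 6 passed (4.22%), and 3 passed in the test among all treatments (2.25%).

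The median log2 fold change of the 30 was 0.0434 for agrin against control, beside 0.000384 for all genes, and 0.07 for 13-3B5 against control, beside 0.0004. It was -0.0224 for agrin with 13-3B5xb12 against agrin, beside -0.00523, and -0.00135 for agrin with 11-3F6xb12 against agrin, beside -0.00332. Between the monovalent antibodies it was -0.00106, beside 0.00483. The precision depended on the level: in agrin against control the median standard error was 0.105 on the log2 scale for the genes above 10 CPM and 0.354 for those between 1 and 10 CPM. A standard error is not the limit of detection, since differences larger than it, given below, were not called either. The missing calls do not show that the treatments acted alike.

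**Figure D3:**
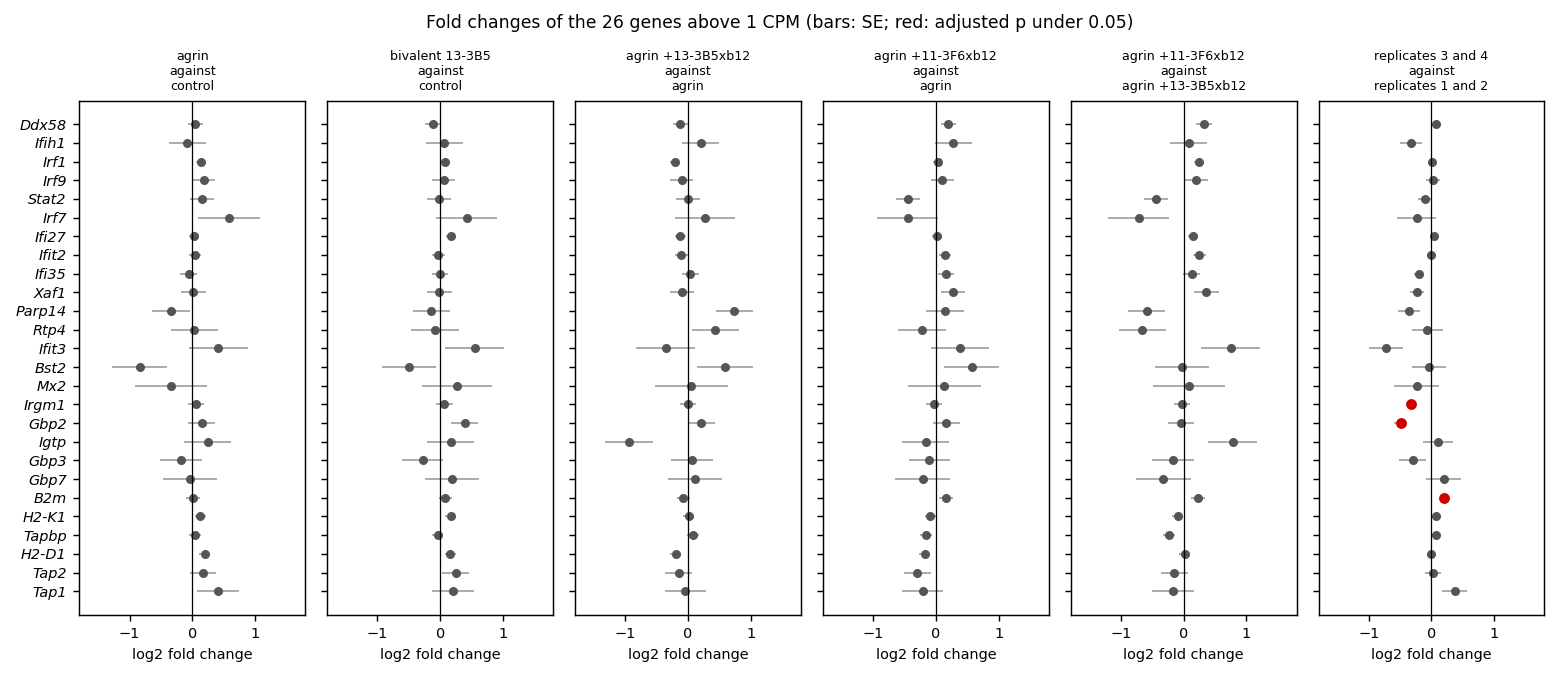
Log2 fold change with its standard error for the 26 genes above 1 CPM, in 5 treatment comparisons and, at the right, between replicate numbers. Red marks an adjusted p under 0.05, which only Irgm1, Gbp2 and B2m reached, all in the panel of replicate numbers.

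The genes nearest to a difference were mostly well expressed ones, and their values are given as description. They were picked by their p, and the share of all genes whose groups do not overlap is not given here. H2-D1 (chr17:35262730-35267499, plus strand, GRCm38) had 52.5, 47.4, 51.4 and 54.1 CPM in control replicates 1 to 4 and 59.5, 65.9, 55.0 and 54.9 CPM in the agrin libraries. The 4 agrin libraries lay above the 4 control libraries, by 0.20 on the log2 scale (SE 0.087), with an adjusted p of 0.9997 by edgeR. With 13-3B5xb12 beside agrin H2-D1 had 44.2, 51.1, 54.8 and 55.1 CPM, and with 11-3F6xb12 it had 55.4, 52.3, 48.8 and 51.3 CPM. Both sets overlapped the agrin libraries, with log2 differences of -0.20 (SE 0.087) and -0.18 (SE 0.087). The first was -0.13 (SE 0.087) without the library that stood apart. The second was -0.12 (SE 0.091) without agrin replicate 2. Within replicates 1 and 2 H2-D1 differed by 0.33 (SE 0.11) for agrin against control and by -0.40 (SE 0.11) for 13-3B5xb12 against agrin. Within replicates 3 and 4 the differences were 0.059 (SE 0.11) and -0.00097 (SE 0.11). These 3 comparisons share the agrin libraries. Ifi27 had 94.0, 81.5, 86.2 and 96.3 CPM in the control and 106, 101, 101 and 95.7 CPM with 13-3B5, and the groups overlapped. The log2 difference was 0.17 (SE 0.083), and 0.10 (SE 0.11) within replicates 3 and 4.

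The monovalent antibodies did not overlap in Irf1 (chr11:53770014-53778374, plus strand). It had 48.1, 50.8, 51.5 and 46.9 CPM in agrin with 13-3B5xb12, and 52.1, 59.5, 63.5 and 58.4 CPM in agrin with 11-3F6xb12. The groups did not overlap, and the log2 difference was 0.24 (SE 0.078), with an adjusted p of 0.992 by edgeR's quasi-likelihood test. In agrin with b12 the values were 59.1, 58.3, 56.4 and 54.2 CPM, so the 4 libraries with 13-3B5xb12 also lay below these, by a log2 difference of -0.21 (SE 0.078). Without the library that stood apart the log2 differences were 0.23 (SE 0.084) and -0.20 (SE 0.084). Control libraries had 49.6, 53.0, 57.0 and 47.2 CPM and overlapped each of these 3 groups.

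Ifit2, Ddx58 and B2m were also higher in the mean with 11-3F6xb12 than with 13-3B5xb12, while Tapbp and Stat2 were lower; none passed the adjusted threshold. Ifit2 had 28.6, 28.9, 30.5 and 30.8 CPM against 24.9, 26.9, 21 and 27.1 CPM, with no overlap and a log2 difference of 0.25 (SE 0.10). Ddx58 had 20.4, 25.2, 26 and 27.5 CPM against 18.7, 21.9, 17.0 and 21.5 CPM, and the groups overlapped. B2m had 273, 273, 293 and 284 CPM against 182, 254, 269 and 253 CPM, with no overlap, a log2 difference of 0.23 (SE 0.11). The lowest value comes from the library that stood apart, and without it the difference was 0.12 (SE 0.095). Tapbp had 51.0, 50.4, 53.1 and 63.4 CPM against 61.9, 68.5, 62.4 and 64.2 CPM. Stat2 had 6.27, 7.12, 5.37 and 9.03 CPM with 11-3F6xb12, against 12.1, 9.89, 7.04 and 8.81 CPM with 13-3B5xb12 and 10.0, 10.2, 9.90 and 7.74 CPM with b12. Its log2 difference between the monovalent antibodies was -0.44 (SE 0.19), and -0.30 (SE 0.20) without the library that stood apart. Within replicates 1 and 2, and then within 3 and 4, the differences were -0.72 and -0.14 in Stat2, -0.36 and -0.12 in Tapbp, and 0.33 and 0.15 in B2m. Within replicates 1 and 2 Ifit2 had 0.15 and Ddx58 0.17. Within replicates 3 and 4 the mean CPM was 30.6 against 24.1 in Ifit2 and 26.7 against 19.3 in Ddx58. When 1 library was left out, the log2 difference ran from 0.17 to 0.29 in Ifit2, 0.25 to 0.41 in Ddx58 and -0.32 to -0.20 in Tapbp.

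**Figure D4:**
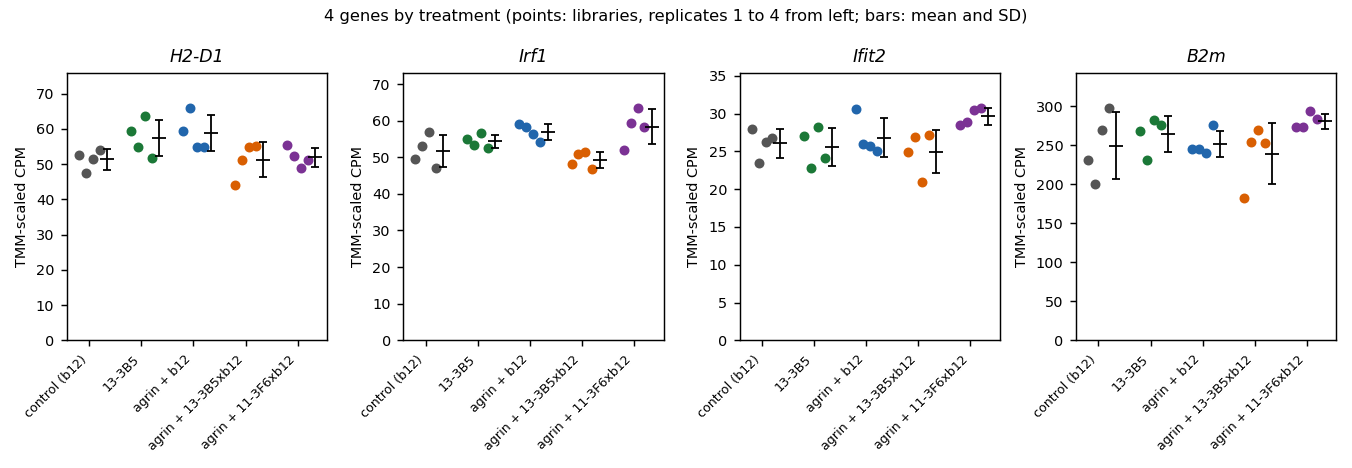
TMM-scaled CPM of H2-D1, Irf1, Ifit2 and B2m in each library by treatment, with the mean and SD beside the points and axes from 0. These are the genes with an unadjusted p under 0.05 and no overlap in some treatment comparison. The share of all genes that meet this rule is not given here. Irf1 lies between 46.9 and 51.5 CPM with 13-3B5xb12 and between 52.1 and 63.5 CPM with 11-3F6xb12, and no gene passed the adjusted threshold.

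The largest log2 differences at an unadjusted p under 0.05 were in Parp14, Igtp and Ifit1. Parp14 had 7.53, 5.86, 4.49 and 2.84 CPM in agrin with 13-3B5xb12 and 3.59, 3.00, 3.92 and 1.87 CPM in agrin with b12, a log2 difference of 0.74 (SE 0.30). Igtp had 0.411, 1.56, 1.53 and 1.40 CPM against 1.5, 1.74, 4.00 and 2.16 CPM, a difference of -0.94 (SE 0.39). Ifit1 had 0.0913, 0.430, 0.212 and 0.785 CPM against 1.36, 0.751, 0.759 and 1.5 CPM, a difference of -1.51 (SE 0.73). Each of the 3 overlapped between the groups, and the library that stood apart gave the highest Parp14 value and the lowest values of Igtp and Ifit1 in its group. Without it the log2 differences were 0.50 (SE 0.31), -0.66 (SE 0.37) and -1.19 (SE 0.75). Igtp depended more on agrin replicate 3, without which its difference was -0.56 (SE 0.40). Within replicates 3 and 4 that of Parp14 was 0.34 (SE 0.38).

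Replicate numbers 3 and 4 were then compared with numbers 1 and 2, 10 libraries against 10, with treatment in the model. The split was proposed from earlier results of these data, in which it separated the libraries. Libraries of 1 number may share a culture, so the 10 libraries of a side may not be independent. Of the 30 genes 3 were called by edgeR's quasi-likelihood test with Benjamini-Hochberg adjusted p under 0.05, against 13.1% of all 14605 genes. Irgm1 and Gbp2 were lower in replicates 3 and 4 (7.13% of all genes were lower) and B2m was higher (5.93% were higher). The count among the 30 is thus near the background, and the median log2 difference of the 30 was 0.00639, beside 0.0064 for all. Overlap between the replicate numbers is given below for the 3 called genes as description only. The share of all genes whose libraries separate in the same way is not given here.

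Irgm1 (chr11:48861968-48871683, minus strand, GRCm38) ran from 28.0 to 34.6 CPM with a median of 32.6 in replicates 1 and 2, and from 23.6 to 27.8 CPM with a median of 26 in replicates 3 and 4. The groups of 10 did not overlap. The means were 32.2 ± 1.87 and 25.7 ± 1.69 CPM, a log2 difference of -0.32 (SE 0.058) with an adjusted p of 1.06e-04 by edgeR. Within each of the 5 treatments both libraries of replicates 3 and 4 lay below both of replicates 1 and 2, and the log2 difference ran from -0.23 with 13-3B5 to -0.45 with agrin.

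Gbp2 (chr3:142620602-142638008, plus strand) ran from 8.96 to 15.7 CPM with a median of 12.7 in replicates 1 and 2, and from 6.69 to 10.7 CPM with a median of 9.23 in replicates 3 and 4. The ranges overlapped, and the log2 difference was -0.49 (SE 0.098) with an adjusted p of 4.44e-04 by edgeR. It was lower in the mean in all 5 treatments, without overlap in the 4 other than control. The within-treatment differences ran from -0.31 in the control to -0.79 in agrin with 13-3B5xb12.

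B2m (chr2:122147686-122153083, plus strand) ran from 182 to 273 CPM with a median of 245 in replicates 1 and 2, and from 241 to 298 CPM with a median of 276 in replicates 3 and 4. The ranges overlapped, and the log2 difference was 0.19 (SE 0.052) with an adjusted p of 0.00917 by edgeR. It was higher in the mean in all 5 treatments, without overlap in 3, and the differences ran from 0.077 with agrin to 0.40 in the control. Without agrin with 13-3B5xb12 replicate 1 and control replicate 2, which hold the 2 lowest B2m values, the log2 difference was 0.12 and was still called.

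**Figure D5:**
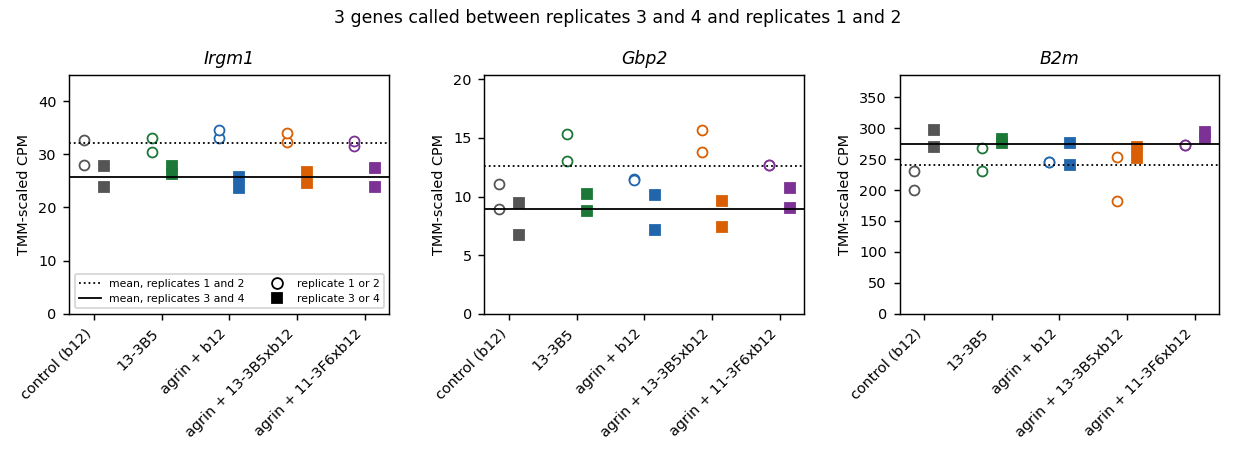
TMM-scaled CPM of Irgm1, Gbp2 and B2m by treatment, with open circles for replicates 1 and 2 and filled squares for replicates 3 and 4; the dotted and solid lines are their means over 10 libraries, and axes start at 0. The squares of Irgm1 lie below the circles in all 5 treatments (means 25.7 and 32.2 CPM), and those of B2m lie higher in the mean (274 and 240 CPM).

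With 2 libraries against 2 within a treatment none of the 30 genes was called by edgeR, beside 162 to 388 of all 14605 genes. At so low a share 0 of 30 is not unusual. In edgeR's test of whether the difference varies among treatments 0 of the 30 were called, against 0.00685% of all genes, and 0 had an unadjusted p under 0.05, against 4.85%. The smallest adjusted p among the 30 was 0.966, and DESeq2 was not run for that test. Nearest to the threshold between replicate numbers were Ifi35, with 23.7 CPM in replicates 3 and 4 and 27.3 CPM in replicates 1 and 2 (adjusted p = 0.0663 by edgeR), and Ifit3, with 1.27 and 2.13 CPM (adjusted p = 0.07). Without agrin with 13-3B5xb12 replicate 1 both were called, which makes 5 genes instead of 3.

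Within a class the values differed. Of the GTPases, Igtp and Gbp7 had log2 differences of 0.11 (SE 0.24) and 0.19 (SE 0.28), beside the lower Irgm1 and Gbp2, and Gbp3 had -0.30 (SE 0.21). In antigen presentation H2-D1 had a log2 difference of -0.00024 (SE 0.053), and none of Tap1, Tap2, Tapbp, H2-K1 and Psmb8 was called. None of the sensors and transcription factors was called, and Irf1 had 0.013 (SE 0.048).

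Other features moved with the replicate numbers. The mitochondrial share of counts was 35.1 ± 2.7% in replicates 1 and 2 and 30.3 ± 1.58% in replicates 3 and 4. Of the 11 myotube markers 3 were lower in replicates 3 and 4, Ckm, Tnnt3 and Ryr1, with log2 differences of -0.72, -0.43 and -0.38, and none was called higher, against 13.1% of all genes called. The sum of the 11 ran from 8897 to 9919 CPM in replicates 1 and 2 and from 8210 to 9332 CPM in the others. Of 6 fibroblast markers 3 were lower, Col1a1, Col3a1 and Lum, and the sum of the 6 ran from 4475 to 4956 and from 3873 to 4730 CPM. The cultures are of 1 cell line, so these markers do not show a separate population of fibroblasts. Among 6 markers of undifferentiated or cycling cells Ccnb1 was lower, and among 8 hepatocyte markers Hp was higher, by 1.62. The leukocyte sum ran from 0.456 to 2.08 CPM and from 0.46 to 1.90 CPM. The part of these in the differences of Irgm1, Gbp2 and B2m was not tested, and fewer cells of a kind and less RNA per cell cannot be told apart in such libraries.

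Of the 107 other pathway genes matched, 84 were tested, and 15 were called between the replicate numbers by edgeR, 8 higher and 7 lower in replicates 3 and 4, against 13.1% of all genes. In the signalling chain Jak2 rose by 0.37 (SE 0.040), Stat3 by 0.26 (SE 0.037) and the inhibitor Socs3 by 0.51 (SE 0.084), while the receptor chain Ifngr2 fell by 0.29 (SE 0.056). Of the other interferon-stimulated genes Ifitm2 and Ifi47 were higher, by 0.47 and 0.54. Gbp2b, Parp9, Dtx3l, Samd9l and Isg20 were lower, with log2 differences of -0.41, -0.32, -0.47, -0.36 and -0.62. The partners Parp9 and Dtx3l, which form a ubiquitin ligase complex, had 18.7 and 11.4 CPM in replicates 1 and 2 and 14.9 and 8.24 CPM in replicates 3 and 4. In antigen presentation only H2-T24, a nonclassical class I gene, was called, with -0.86. The chemokines Cxcl1, Cxcl5 and Cxcl12 were higher, by 0.55, 0.70 and 0.65, and Cxcl5 rose from a mean of 353 to 570 CPM. None of the 84 was called by edgeR in a treatment comparison, and 1, 1, 6, 2 and 5 of the 84 had an unadjusted p under 0.05 in the 5 comparisons in the order given above.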

How the data were processed

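Total RNA depleted of ribosomal RNA was sequenced in 20 libraries as stranded paired reads of 150 bases, per the labels' protocols. The deposited values are raw counts per gene. The submitters' processing notes name Trim Galore 0.6.6, cutadapt 2.10, STAR 2.7.6a, HTSeq 0.12.4, DESeq2 1.32.0 and GRCm38. Strand and multimapping settings are not given in the sources used here. Groups follow the labels. Counts were scaled by TMM and filtered with filterByExpr (minimum count 10, total 15), which left 14605 genes. They were tested in R 4.3.3 with edgeR 4.0.16 (robust quasi-likelihood, Benjamini-Hochberg over all genes tested, 15 residual degrees of freedom, 14 for the replicate comparison), and the code was tested on simulated counts. DESeq2 1.42.0 was an alternative. Exon lengths and positions come from GENCODE M21, and promoters from RefSeq GRCm38.p6. The 39 genes and all lists were chosen with earlier results of these data known. All 39 are named. Full values are given for those called, those with the highest levels and those with the smallest p in each comparison. Others given in full were chosen after their values were seen. The deviations of same-numbered libraries were correlated in 13-3B5 against control and in each monovalent antibody against agrin (lowest 0.127, 0.103 and 0.161). Their means were 0.202, 0.157 and 0.239, beside 0.185, 0.1075 and 0.228 for the other number of the same pair (1 and 2, or 3 and 4). Of 8 libraries, 3, 5 and 4 correlated best with their own number. Pairing by single number is therefore not shown apart from the split of the pairs. In the other 2 treatment comparisons the lowest correlations were 0.00824 and 0.0528. Intervals of counting error assume independent molecules. The values of 1 gene of the wider pathway lists are not reported here; the counts over the lists include it.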

Additional observations from a re-analysis of the deposited data

Results flagged for a closer look

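In 100 groups of 4 libraries, for 20 of the genes, 11 groups had a library whose gap to the nearest of the others exceeded Dixon's critical share of the group's range. Chance gives about 1 in 20 for normally distributed values. Counts near 0 do not meet that condition, and where all other libraries are at 0 the gap is the whole range. The number 11 is therefore not read as an excess. In the control, H2-K1 was 84.1 CPM in replicate 1 against 69.8 to 72.1 in the others, Dhx58 was 1.21 CPM in replicate 2 against 0.307 to 0.429, and Cxcl10 was 0.286 CPM in replicate 1 and 0 in the others. With 13-3B5, H2-K1 was 74.6 CPM in replicate 4 against 85.2 to 87.1.

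With agrin and b12, Ifit2 was 30.6 CPM in replicate 1 against 25.0 to 25.9, and Usp18 was 0.545 CPM there and 0 in the others. In replicate 4 of that group B2m was 276 CPM against 241 to 245, and Stat2 was 7.74 CPM against 9.90 to 10.2. With agrin and 13-3B5xb12, Ifih1 was 4.84 CPM in replicate 2 against 2.92 to 3.10, Igtp was 0.411 CPM in replicate 1 against 1.40 to 1.56, and Usp18 was 0.262 CPM in replicate 4 and 0 in the others. The values of Usp18, Dhx58 and Cxcl10 rest on few counts.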

How the results depend on the processing

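None of the 30 genes tested was called in a treatment comparison under any alternative run, and no gene named with a difference at an unadjusted p under 0.05 changed direction. Of all 30, 20, 19, 18, 14 and 11 had a log2 difference of the other sign under at least 1 alternative in the 5 comparisons, in the order of the report. Counts over all genes, 0 by edgeR's quasi-likelihood test, moved in some. With no filter on low counts they were 4 for agrin against control, 2 for 13-3B5 against control, 6 and 13 for agrin with 13-3B5xb12 and with 11-3F6xb12 against agrin, 27 between the monovalent antibodies and 50 among all treatments. With the replicate block they were 2 for 11-3F6xb12 against agrin, 5 between the antibodies and 2 among all; with the pairs of numbers as a factor, 2, 10 and 5. Within replicates 1 and 2 they were 1 and 19 for the first 2 of these, and within replicates 3 and 4 there were 2 between the antibodies, as by DESeq2. The cause was not tested. The block changed no call among the 30.

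Between replicate numbers 3 of the 30 were called, also with the replicate block, whose test still rests on the spread among the 20 libraries. In 7 alternatives 3 or 4 were called. Among these is the fit of counts summed per replicate number, which takes each number as 1 unit. Leaving out 1 library gave 3 to 5 genes, and 5 without agrin with 13-3B5xb12 replicate 1 and control replicate 2 together. Within treatments, with fewer libraries, 0 were called, and genes of all fell from 1908 to 193 with agrin, 215 with 11-3F6xb12, 260 with 13-3B5xb12, 162 with bivalent 13-3B5 and 388 in the control. The log2 difference ran from -0.35 to -0.31 in Irgm1, -0.54 to -0.44 in Gbp2 and 0.16 to 0.23 in B2m when 1 library was left out. Genes above 1 CPM were 18 if required in all libraries, 31 in at least 1, and 27 without mitochondrial ribosomal RNA. Depth limits the 13 low genes.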
